A study of Mus musculus with 4 samples.

Results

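The genes described here are 33 members of the NF-kB pathway and its target genes, chosen by symbol from the 31053 features of the count matrices, and all 33 were matched. They comprise 6 genes of the IkB family (inhibitors and nuclear regulators), 5 NF-kB and Rel subunits, 2 kinases and 3 ubiquitin-editing or TNIP inhibitors. The rest are 9 survival and receptor adaptor targets and 8 surface and effector targets. All 33 were followed across marker-defined cell classes of blood and ear skin from C57BL/6J mice aged 6 to 8 weeks. EBA mice had received 250 µg of affinity-purified IgG against vWFA2-COL7, from collagen VII, 3 times a week for 2 weeks, a transfer model of the blistering disease epidermolysis bullosa acquisita. IgG mice had received control rabbit IgG on the same schedule, so the controls carried injected antibody too. Cells of 3 mice were pooled into 1 library for each group and tissue (EBA skin, EBA blood, IgG skin and IgG blood). With 1 library a group there was no spread between replicates and no test, and all intervals below are 95% intervals for counting error alone. Blood was only freed of red cells, whereas lesional skin was taken by punch biopsy and digested with enzymes, so tissue and digestion cannot be told apart.

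NF-kB is a family of dimeric transcription factors built from p50 (Nfkb1), p52 (Nfkb2), p65 (Rela), c-Rel (Rel) and RelB (Relb). Classical IkB proteins hold the dimers in the cytoplasm until IkB kinases mark these inhibitors for destruction. The freed dimers then switch on genes for inflammation and survival. Several of these targets encode brakes of the pathway itself, such as IkBα (Nfkbia) and the ubiquitin-editing enzyme A20 (Tnfaip3). In neutrophils the pathway is known for induction by microbial products, cytokines and immune complexes, and its survival targets oppose the rapid death of these cells.

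The libraries held 5008 to 6770 barcodes and 22705634 to 90829463 UMIs, and 3325 to 5106 barcodes were kept with median depths of 3741 to 10613 UMIs. Any pair of libraries shared 8 to 15 barcodes. Neutrophil-like cells numbered 883 in EBA skin, 813 in EBA blood and 450 in IgG blood, but 1 in IgG skin, so neutrophils of EBA and IgG skin were not compared. All 9 neutrophil markers were detected in each of the 3 neutrophil sums, and all 8 T cell markers in the T cell sums of both skin libraries. Levels are in CPM, the standard depth-scaled unit, computed from a gene's UMIs and all UMIs summed over a class in a library. A member counted as measured when the pair of sums held at least 10 of its UMIs and the larger level was at least 10 CPM. A ratio of at least 2 was called higher and a ratio of at most 0.5 lower. Ratios were centred on the median over the measured genes of a comparison if that median was further than 0.1 (log2) from 0, and folds and log2 ratios below are these relative values.

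Promoter sequences from RefSeq (GRCm38.p6) were listed for 27 of the 33 members, and 10 of these genes (37.0%) had a match to the κB consensus within 250 bases before a start site. Over all 27025 genes with such windows the share was 4.46%, and over all 32851 windows it was 3.9%, against 12 of 34 windows (35.3%) of the members. Both strands were searched, and matches overlap where the sequence is nearly palindromic. The genes with a match were Ier3, Nfkb2, Nfkbia, Nfkbid, Nfkbie, Rel, Sod2, Tnfaip3, Tnip1 and Tnip3, and promoters of Nfkbiz, Nfkb1, Relb, Map3k8, Cd83 and Cd40 were not listed. The members were chosen as genes of the pathway and its targets, so their higher share is not a finding of these data. A match is a description of letters, not a bound site or a cause. The 130 bases before the start site are shown for the inhibitor gene Nfkbia (chr12:55492648-55492777, minus strand), the subunit genes Nfkb2 (chr19:46304607-46304736, plus strand) and Rel (chr11:23770970-23771099, minus strand), the brakes Tnfaip3 (chr10:19015411-19015540, minus strand) and Tnip1 (chr11:54962941-54963070, minus strand), and the mitochondrial superoxide dismutase gene Sod2 (chr17:13007709-13007838, plus strand). They are shown as examples from different roles among the members with a match, whose levels in skin neutrophils are described next, and capitals mark the κB matches.
Nfkbia: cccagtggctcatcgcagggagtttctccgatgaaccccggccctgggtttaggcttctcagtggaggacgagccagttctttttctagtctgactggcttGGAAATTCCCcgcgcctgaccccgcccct
Nfkb2: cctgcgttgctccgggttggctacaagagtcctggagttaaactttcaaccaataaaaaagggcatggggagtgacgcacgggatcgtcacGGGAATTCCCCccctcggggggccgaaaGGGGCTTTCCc
Rel: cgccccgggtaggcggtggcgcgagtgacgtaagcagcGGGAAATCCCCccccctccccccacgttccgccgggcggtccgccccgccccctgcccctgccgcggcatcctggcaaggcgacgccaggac
Tnfaip3: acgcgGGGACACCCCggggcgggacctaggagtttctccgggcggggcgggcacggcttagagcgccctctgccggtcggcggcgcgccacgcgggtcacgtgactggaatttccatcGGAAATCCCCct
Tnip1: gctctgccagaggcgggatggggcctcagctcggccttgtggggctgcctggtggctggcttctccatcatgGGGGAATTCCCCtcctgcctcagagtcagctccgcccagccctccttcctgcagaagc
Sod2: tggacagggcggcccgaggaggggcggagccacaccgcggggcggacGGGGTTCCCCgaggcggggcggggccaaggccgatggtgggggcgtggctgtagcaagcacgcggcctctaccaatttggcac
The match of Nfkbia began 29 bases before the start site, and the later of the pair in Tnfaip3 began 12 bases before it. Tnip1 held 3 overlapping matches that began 56 to 58 bases before its start, and Nfkb2 held an overlapping pair at 38 and 39 bases and a further match at 11 bases.

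Neutrophil-like cells of EBA skin held the highest summed level of the 33 members among all classes of all libraries. The sum was 16800 CPM (16660 to 16940) in EBA skin, 1237 CPM (1215 to 1260) in EBA blood and 3521 CPM (3416 to 3628) in IgG blood. Of 29 members measured between EBA skin and EBA blood, 28 were higher in skin, 1 was lower (Birc2) and the median log2 ratio was 3.55. Over all measured genes, 27.5% were called higher and 26.8% lower in that comparison. Of the 29, 10 reached 10 CPM in skin alone and so had to differ. Of the 19 members that reached it in both sums, 18 were higher and 1 was lower. Against IgG blood, 27 of 29 measured members were higher and 1 was lower, with a median of 3.46 and 26.8% and 25.4% of all measured genes called in those directions. Of the 23 that reached 10 CPM in both of these sums, 21 were higher and 1 was lower. Both comparisons use the same skin library.

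**Figure D1:**
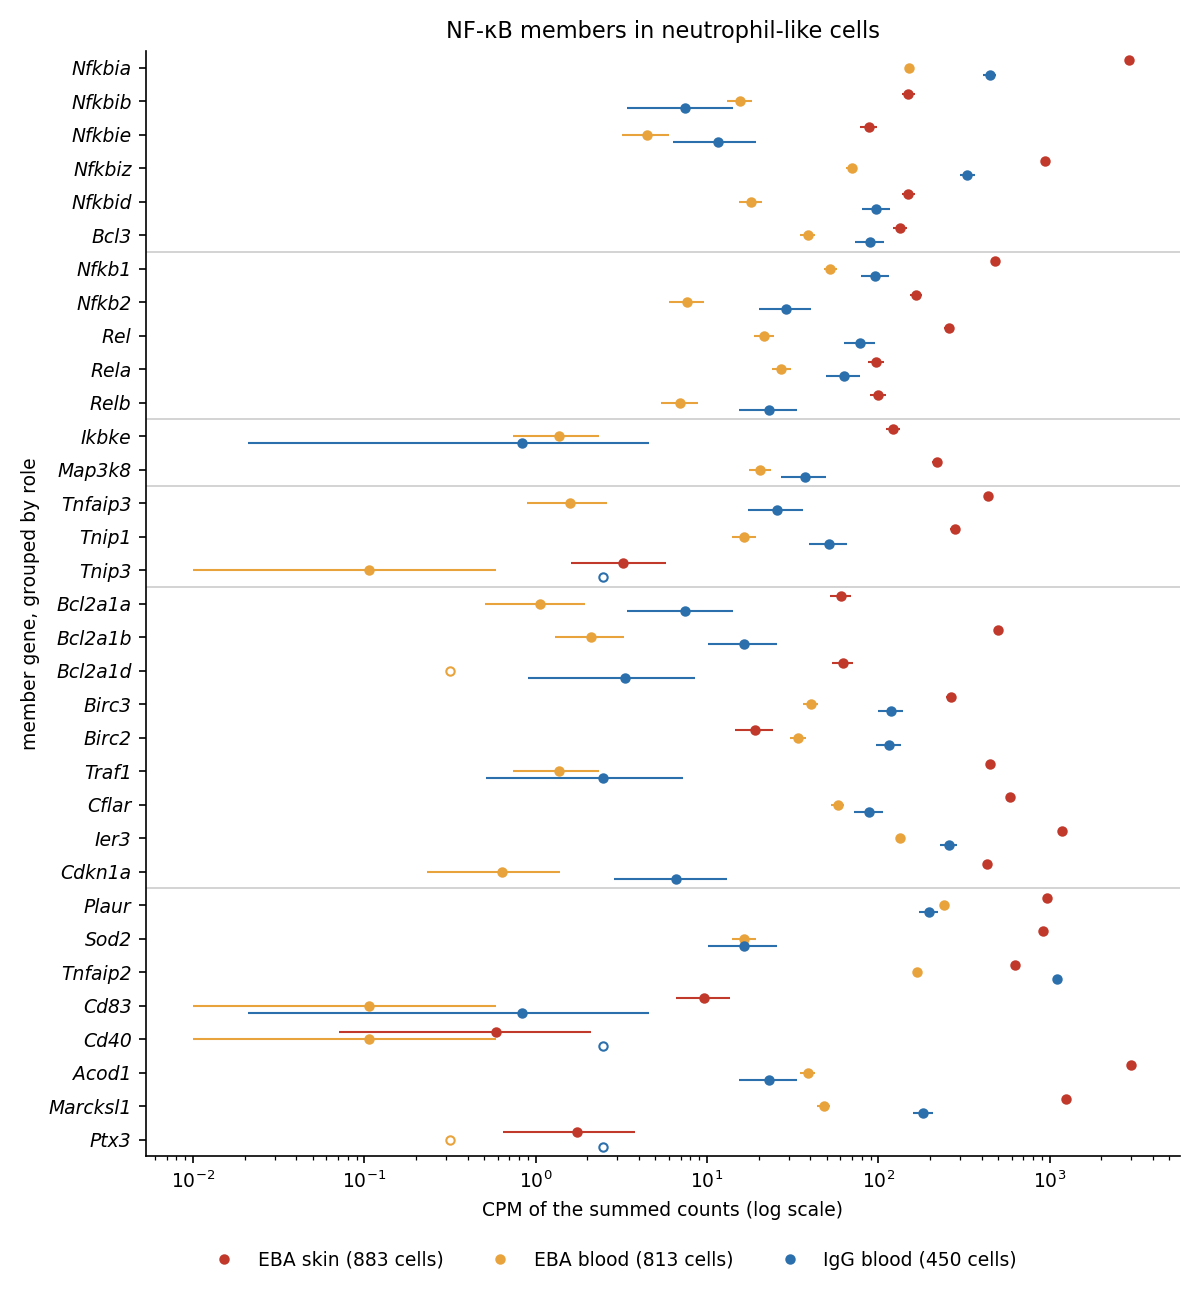
CPM of each member (log axis) in the summed counts of neutrophil-like cells of EBA skin (883 cells), EBA blood (813) and IgG blood (450), with lines for exact Poisson 95% intervals and open circles at the level of 3 counts where a sum held no UMI. The skin points lie to the right of the blood points for nearly every member, with Birc2 on the other side and Tnfaip2 below its level in IgG blood.

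The IkB family genes, for inhibitors and nuclear regulators, were higher in skin neutrophils as a group. Of these, 6 of 6 were called higher than in EBA blood (median log2 ratio 3.23) and 6 of 6 higher than in IgG blood (2.99). Nfkbie against EBA blood and Nfkbib against IgG blood reached 10 CPM in skin alone and so had to differ. Nfkbia, which encodes IkBα, stood at 2890 CPM in EBA skin, 151 CPM in EBA blood and 447 CPM in IgG blood. Its level was 15.8-fold higher in skin than in EBA blood (14.9 to 16.7). Nfkbiz, which encodes the nuclear coactivator IkBζ, stood at 939, 69.8 and 330 CPM in the same order, 11.1-fold higher in skin than in EBA blood. On plain CPM the skin sum was highest for both genes, and IgG blood lay above EBA blood. After centring, Nfkbiz was called lower in EBA than in IgG blood and Nfkbia was not called.

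Nfkbib, the gene for IkBβ, was at 150 CPM in EBA skin, 15.6 CPM in EBA blood and 7.43 CPM in IgG blood. Nfkbie, the gene for IkBε, was at 87.6, 4.44 and 11.6 CPM. Nfkbid, which encodes the nuclear regulator IkBNS, was at 150, 18.0 and 97.5 CPM. Bcl3, another nuclear IkB protein that works with p50 and p52, was at 133, 38.7 and 89.2 CPM. Bcl3 showed the smallest ratios of the 6, at 2.84-fold over EBA blood and 2.76-fold over IgG blood, and Nfkbid was 2.84-fold over IgG blood.

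All 5 subunit genes were called higher in skin neutrophils in both comparisons, with a median log2 ratio of 3.30 against EBA blood and 2.99 against IgG blood. Against EBA blood, Nfkb2 and Relb reached 10 CPM in skin alone and so had to differ. Nfkb1 was at 476 CPM in EBA skin, 52.4 CPM in EBA blood and 95.8 CPM in IgG blood. Nfkb2 was at 166, 7.62 and 28.9 CPM, and at 17.9-fold it had the largest ratio of the subunits against EBA blood. Rel was at 258, 21.6 and 77.6 CPM. Relb was at 99.3, 6.98 and 23.1 CPM, 11.7-fold higher in skin than in EBA blood. Rela, the gene for p65, differed least, at 96.6, 27.2 and 62.8 CPM, which is a log2 ratio of 1.55 (1.31 to 1.79) against EBA blood.

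Among the kinases, Ikbke encodes an IkB kinase-related enzyme with a role in interferon induction, and Map3k8 encodes the kinase TPL2 of the MAP kinase arm. Ikbke held 418 UMIs in EBA skin, 13 in EBA blood and 1 in IgG blood (122, 1.38 and 0.826 CPM). Its level was 73.2-fold higher in skin than in EBA blood, and the ratio to the single UMI of IgG blood was 274 (48.8 to 10830). Map3k8 was at 220, 20.4 and 37.2 CPM, 8.89-fold higher in skin than in EBA blood. Ikbke was thus close to undetected in blood neutrophils, whereas Map3k8 was detected in every sum.

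Tnfaip3, the gene for A20, had one of the widest gaps among the brakes of the pathway. It stood at 434 CPM in EBA skin, 1.59 CPM in EBA blood (15 UMIs) and 25.6 CPM in IgG blood (31 UMIs). That is 226-fold higher in skin than in EBA blood (137 to 405) and 31.4-fold higher than in IgG blood. Tnip1, whose product binds A20, stood at 279, 16.4 and 51.2 CPM. Tnip3, a relative of Tnip1, was not measured in neutrophils, with 11 UMIs in EBA skin, 1 in EBA blood and 0 in IgG blood.

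Survival and receptor adaptor targets contributed 8 higher members and 1 lower member of 9 against EBA blood, with a median log2 ratio of 5.56. Among them Traf1, Cdkn1a, Bcl2a1a, Bcl2a1b and Bcl2a1d reached 10 CPM in skin alone and so had to differ. The median rests in part on these genes. Traf1, which encodes an adaptor of TNF receptors, stood at 450 CPM in EBA skin, 1.38 CPM in EBA blood and 2.48 CPM in IgG blood. Its level was 270-fold higher in skin than in EBA blood, and the ratio to the 3 UMIs of IgG blood was 336 (115 to 1631). Cdkn1a, the gene for the cell cycle inhibitor p21, stood at 429, 0.635 and 6.61 CPM, a ratio of 558 (256 to 1523) to EBA blood and 120 to IgG blood. Both genes were nearly undetected in blood neutrophils of either group.

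The anti-apoptotic Bcl2a1 genes lie as near-identical copies on chromosome 9, between 88723285 and 89207827 in the GENCODE annotation of GRCm38, so the split of reads among them is uncertain. Bcl2a1b stood at 497 CPM in EBA skin, 2.12 CPM in EBA blood and 16.5 CPM in IgG blood. Bcl2a1a stood at 60.4, 1.06 and 7.43 CPM. Bcl2a1d stood at 61.9 CPM in skin, 0 in EBA blood and 3.30 CPM in IgG blood, at least 161-fold higher in skin than in EBA blood when that sum is set to 3 counts. On plain CPM the 3 copies therefore stood in the same order of sums, with skin far above and IgG blood above EBA blood.

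Birc3 and Birc2, neighbouring genes for the cellular inhibitors of apoptosis cIAP2 and cIAP1, stood on opposite sides. Birc3 was at 265 CPM in EBA skin, 40.3 CPM in EBA blood and 118 CPM in IgG blood, 5.41-fold higher in skin than in EBA blood. Birc2 was at 18.97, 34.1 and 116 CPM, a log2 ratio of −1.12 (−1.53 to −0.73) to EBA blood and −1.72 to IgG blood. Platelet RNA (at least 1 UMI of Pf4 or Ppbp) was seen in 87.1% of the neutrophils of EBA blood, 83.8% of those of IgG blood and 2.6% of those of EBA skin. Birc2 was highest in platelet-like barcodes of IgG blood, at 696 CPM. Without the blood barcodes that held such a UMI, the log2 ratio of Birc2 to EBA blood was −0.24 and no member was called lower, with 28 still higher.

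Cflar, which encodes the caspase-8 inhibitor c-FLIP, was at 584 CPM in EBA skin, 57.9 CPM in EBA blood and 88.4 CPM in IgG blood. Ier3, an immediate early target that modulates NF-kB signalling and cell death, was at 1175, 134 and 257 CPM. Both were higher in skin than in either blood sum, Cflar by 8.32-fold and Ier3 by 7.25-fold against EBA blood.

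Among the surface and effector targets, Acod1 had the highest level of any member in skin neutrophils. Acod1 encodes the enzyme that makes itaconate, a metabolite of activated myeloid cells. It stood at 2994 CPM in EBA skin, 38.6 CPM in EBA blood and 23.1 CPM in IgG blood, 64.0-fold (57.6 to 71.2) and 240-fold higher in skin. Sod2 stood at 919, 16.4 and 16.5 CPM, 46.2-fold and 103-fold higher in skin. On plain CPM the blood sums of both genes lay close together beside the skin sum. After centring, both genes were called higher in EBA than in IgG blood, as given below. The larger fold of Sod2 against IgG blood also comes from centring.

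Marcksl1, which encodes an actin-regulating protein, was at 1237 CPM in EBA skin, 47.9 CPM in EBA blood and 182 CPM in IgG blood. Plaur, the gene for the urokinase receptor of migrating leukocytes, was at 964, 241 and 197 CPM. Plaur was 3.30-fold higher in skin than in EBA blood and 9.08-fold higher than in IgG blood. Tnfaip2 was the member whose order depended on the blood library used. It stood at 628 CPM in EBA skin, 168 CPM in EBA blood and 1101 CPM in IgG blood, a log2 ratio of 1.62 to EBA blood and 0.08 (−0.02 to 0.18) to IgG blood. Cd83, Cd40 and Ptx3 were not measured in neutrophils, with 33, 2 and 6 UMIs in EBA skin and 0 or 1 in each blood sum.

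The difference was also present in single cells at equal depth. Each neutrophil-like cell was thinned to 500 UMIs, a depth that every one of them reached. A thinned cell held a median of 5 members with a UMI in EBA skin (10th to 90th percentile 2 to 9, highest 16), 0 in EBA blood (highest 4) and 1 in IgG blood (highest 6). No member was found in 0.906% of thinned cells of EBA skin, 54.5% of EBA blood and 18.7% of IgG blood. Acod1 was found in 68.9% of thinned skin cells (65.7 to 71.9), 2.46% in EBA blood and 1.11% in IgG blood, against 0.37% of keratinocyte-like cells of EBA skin and 0 of 816 B cell-like cells of EBA blood, which allows up to 0.451% (exact 95% limit). Without thinning these shares were 92.9%, 27.9%, 4.22% and 5.56%, and median depths were 3023, 9969 and 2424 UMIs in the neutrophils and 38830 in the keratinocytes. Tnfaip3 was found in 18.0%, 0.123% and 1.33% of thinned neutrophils of EBA skin, EBA blood and IgG blood, and Sod2 in 29.3%, 0.615% and 1.33%. Tnfaip2 again differed, with 24.5%, 9.1% and 42.4%.

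**Figure D2:**
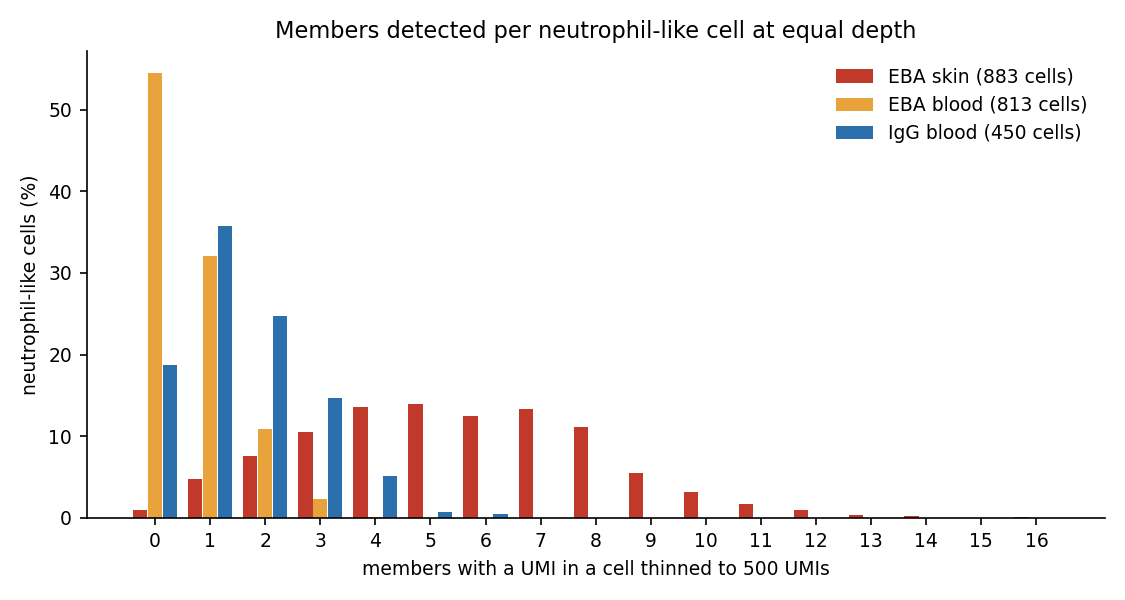
Share of neutrophil-like cells (%, vertical axis) by the number of members with a UMI in a cell thinned to 500 UMIs (horizontal axis), for EBA skin (883 cells), EBA blood (813) and IgG blood (450). Skin cells centre on a median of 5 members, whereas 54.5% of EBA blood cells held none.

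Other genes of the pathway were counted from 3 lists that hold no member. Counts from these lists and from the stress lists, in this and later paragraphs, include genes that reached 10 CPM in 1 sum alone. Such genes, Ccl4 and Ccl3 among them, had to differ, and they were not counted apart. The shares over all measured genes are those given with the members of the same comparison. Of 30 other induced targets, 24 were measured between EBA skin and EBA blood, and 21 were higher in skin and 1 lower, with a median log2 ratio of 6.40. The chemokine genes Cxcl2 (31850 and 23.5 CPM), Ccl4 (6345 and 5.18 CPM) and Ccl3 (5090 and 2.54 CPM) were among the 21, and Irf1 (35.3 and 69.3 CPM) was the lower one. Upstream adaptors and kinases were divided, with 7 higher and 4 lower of 20 measured and a median of 0.69. Irak2, a kinase of Toll-like and interleukin-1 receptor signalling, was at 288 CPM in skin and 8.04 CPM in EBA blood, whereas its partners Irak4 (14.3 and 46.9 CPM) and Myd88 (52.3 and 105 CPM) and the adaptor Card9 (2.63 and 16.3 CPM) were lower in skin. Ubiquitin machinery and brakes had 4 higher and 4 lower of 13 measured, with a median of −0.39. Zc3h12a, which encodes the mRNA-degrading brake Regnase-1, was at 253 and 13.96 CPM, and the 3 genes of the linear ubiquitin ligase, Sharpin (6.71 and 15.9 CPM), Rnf31 (6.71 and 15.8 CPM) and Rbck1 (11.4 and 23.4 CPM), were lower in skin.

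Stress genes moved with the tissue as well. Of 13 measured immediate early genes, 9 were higher and 2 lower in skin neutrophils than in EBA blood (median log2 ratio 1.98), but against IgG blood 5 were higher and 2 lower (0.07). Heat shock genes were higher in 6 of 8 against EBA blood (2.27) and 7 of 8 against IgG blood (1.78). Their part in the members' difference was not tested. The skin neutrophils fell into 1 cluster (882 of 883 cells), whereas EBA blood held a Retnlg cluster (62.1%) and a Camp and Ngp cluster of the more immature kind (36.3%). Set against the Retnlg cluster alone, 28 of 29 measured members were higher in skin and 1 lower (27.3% and 26.9% of all measured genes). Set against the Camp cluster alone, 28 of 29 were higher and none lower (29.9% and 27.7%).

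The 9 measured members with a κB match were all higher in skin neutrophils than in EBA blood, with a median log2 ratio of 3.98 and a range of 2.78 (Nfkbid) to 7.82 (Tnfaip3). Among 16 measured members with a listed promoter and no match, 15 were higher and 1 lower, with a median of 3.74 and a range of −1.12 (Birc2) to 9.12 (Cdkn1a). With a match, Nfkb2, Nfkbie and Tnfaip3 reached 10 CPM in skin alone and so had to differ. Without one, Ikbke, Traf1, Cdkn1a, Bcl2a1a, Bcl2a1b and Bcl2a1d did. The shares over all measured genes are those given above for this comparison. Against IgG blood the medians were 3.41 with a match and 3.78 without. Members with and without these letters therefore overlapped over most of their range.

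Blood neutrophils of EBA and IgG mice differed in a mixed way. Of 24 measured members, 4 were higher in EBA blood and 5 lower, with a median log2 ratio of −0.46 and 14.5% and 12.2% of all measured genes called higher and lower. Of the 18 members that reached 10 CPM in both sums, 3 were higher and 3 lower. The median of all measured genes was itself −1.10 before centring, so these ratios depend on the scaling, and on plain CPM 1 member was higher and 16 were lower. Nfkbib (2.16), Acod1 (1.84), Plaur (1.39) and Sod2 (1.09) were the higher members by log2 ratio. Tnfaip3 (−2.91), Bcl2a1b (−1.87), Tnfaip2 (−1.61), Nfkbid (−1.34) and Nfkbiz (−1.14) were the lower ones. On plain CPM the log2 ratio of Sod2 was −0.01, and without blood barcodes that held a platelet UMI that of Acod1 was −2.05. Immediate early genes were lower in 8 of 13 and higher in none, and the other induced targets were lower in 11 of 17 and higher in none, the latter including Il1b at 510 CPM in EBA blood and 4123 CPM in IgG blood. The blood groups also differed in cluster makeup, since 92.9% of IgG neutrophils were in a cluster that held 1.6% of the EBA neutrophils. Their part was not tested.

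Across the classes of EBA skin, neutrophil-like cells held the highest level of 15 of the 33 members, Langerhans-like cells of 11, T cell-like cells of 4, chondrocyte-like cells of 2 and fibroblast-like cells of 1. In IgG skin, which lacked a neutrophil sum, Langerhans-like cells held the highest level of 15. Among these, Nfkbie, Nfkb2, Relb, Tnip1 and Traf1 had intervals that overlapped with those of the next class. Highest classes were counted for the members alone, not for all genes. Acod1 was the most neutrophil-restricted by level, at 2994 CPM against 148 CPM in macrophage-like cells, the next class. Cd83 and Cd40, costimulatory surface proteins of antigen-presenting cells, were highest in Langerhans-like cells at 804 and 176 CPM, and stood at 9.63 and 0.584 CPM in neutrophils. The Langerhans-like cluster had a marker score of 3.01 for Langerhans cells and 2.5 for dendritic cells. Its top genes included Ccr7 and Ccl22 beside Cd207, and it was not divided further. Rel was also highest in Langerhans-like cells (754 CPM), ahead of T cell-like cells (318 CPM) and neutrophils (258 CPM). Nfkb1 was highest in T cell-like cells (890 CPM) and only sixth highest in neutrophils. Ptx3, the gene for a secreted pattern recognition protein, was at 472 CPM in fibroblast-like cells and 1.75 CPM in neutrophils. In EBA skin the order of Traf1 between T cell-like (757 CPM) and Langerhans-like cells (741 CPM) was within their intervals. The same held for Rela between chondrocyte-like and Schwann-like cells.

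**Figure D3:**
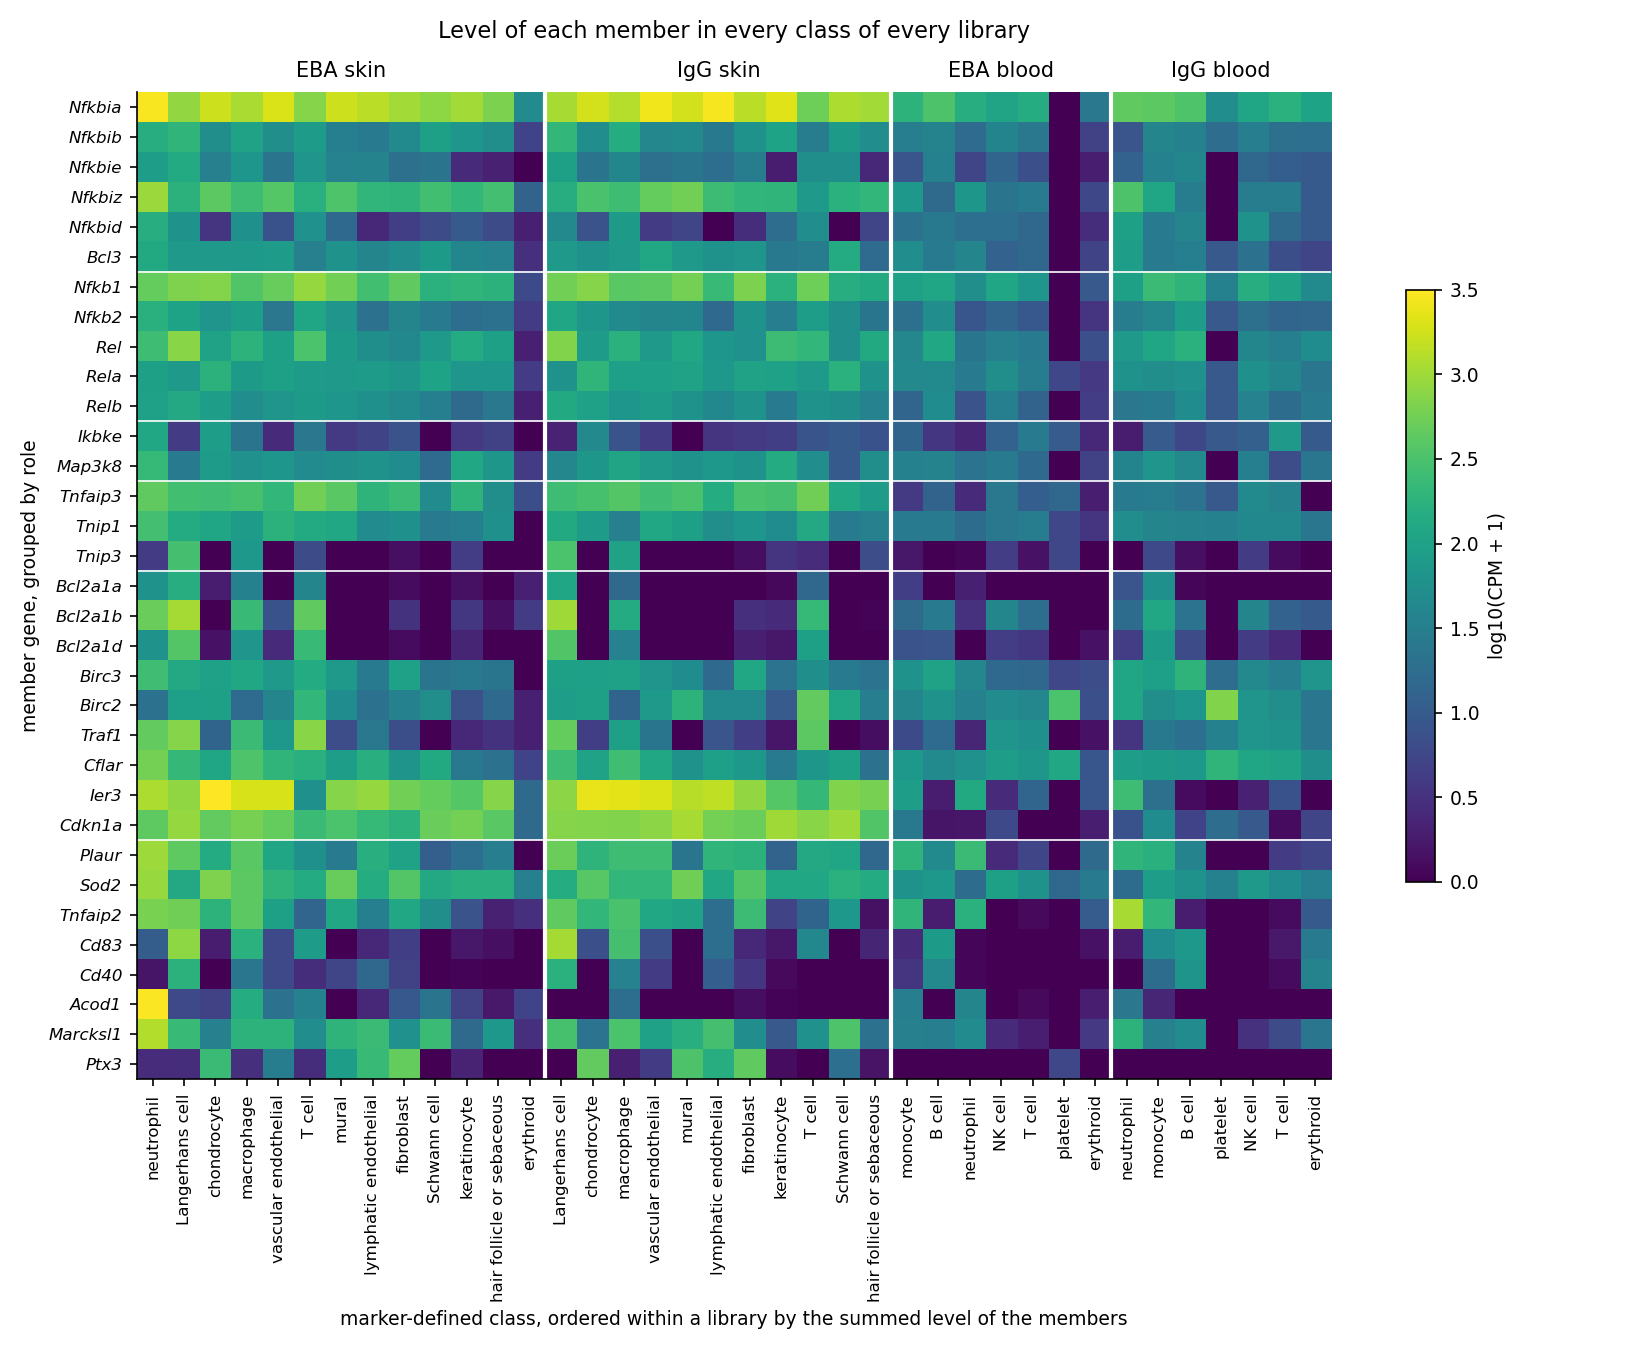
Heat map of log10(CPM + 1) for the 33 members (rows, grouped by role) in each marker-defined class (columns, ordered within a library by the summed level of the members). Acod1, Marcksl1 and Nfkbiz stand out in neutrophil-like cells of EBA skin, Cd83 and Cd40 in Langerhans-like cells and Ptx3 in fibroblast-like cells.

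In T cell-like cells the members were also higher in skin than in blood, in IgG mice as in EBA mice. Their summed level was 5122 CPM in IgG skin (157 cells) and 936 CPM in IgG blood (1211 cells), and 6090 CPM in EBA skin (193 cells) and 735 CPM in EBA blood (658 cells). In IgG mice 22 of 27 measured members were higher in skin and 1 lower, with a median log2 ratio of 2.32 and 25.4% and 22% of all measured genes called in those directions. In EBA mice 24 of 30 were higher and none lower, with a median of 2.68 and background shares of 23.6% and 18.8%. Of the members that reached 10 CPM in both sums, 14 of 18 were higher in IgG mice and 14 of 20 in EBA mice. Skin and blood T cells lay in different clusters, with most skin cells in an Icos and Il2ra cluster (33.1% of IgG skin and 74.1% of EBA skin) or a Trdc cluster (66.2% and 22.8%).

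Cdkn1a had the widest gap in T cell-like cells. It was at 753 CPM in IgG skin and 243 CPM in EBA skin, with 2 UMIs in IgG blood and 0 in EBA blood. The ratio was 2414 in IgG mice, with log2 limits of 9.38 and 14.29, and at least 205-fold in EBA mice. Tnfaip3 was at 552 and 36.2 CPM in IgG skin and blood and at 565 and 10.2 CPM in EBA skin and blood, with log2 ratios of 3.81 and 5.09. Bcl2a1b was at 220 and 11.7 CPM in IgG mice and 447 and 17.6 CPM in EBA mice, and Bcl2a1d was at 96.7 and 1.72 CPM and 234 and 2.68 CPM. These survival genes and Tnfaip3 were low in blood T cells of both groups.

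The subunit genes Nfkb1 (526 and 103 CPM in IgG mice, 890 and 68.3 CPM in EBA mice) and Rel (209 and 31.8 CPM, 318 and 25.8 CPM) were higher in skin T cells in both groups. Nfkbia was at 528 and 168 CPM in IgG mice and at 738 and 147 CPM in EBA mice. Traf1 was at 417 and 62.5 CPM and at 757 and 55.8 CPM. Plaur (128 and 3.15 CPM) and Ier3 (213 and 6.72 CPM) had log2 ratios of 5.23 and 4.86 in IgG mice, and of 2.99 and 1.46 in EBA mice. Cd83 and Marcksl1 were at 85.9 and 51.2 CPM in EBA skin and at 0 and 0.975 CPM in EBA blood. Ikbke was the exception, at 7.03 CPM in IgG skin and 76.0 CPM in IgG blood, a log2 ratio of −3.56, and at 23.8 and 25.8 CPM in EBA mice, where it was not called. Immediate early genes were higher in skin T cells in 11 of 13 (IgG) and 10 of 14 (EBA), with 1 lower in each, and heat shock genes in 6 of 8 in each. Their part was not tested.

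**Figure D4:**
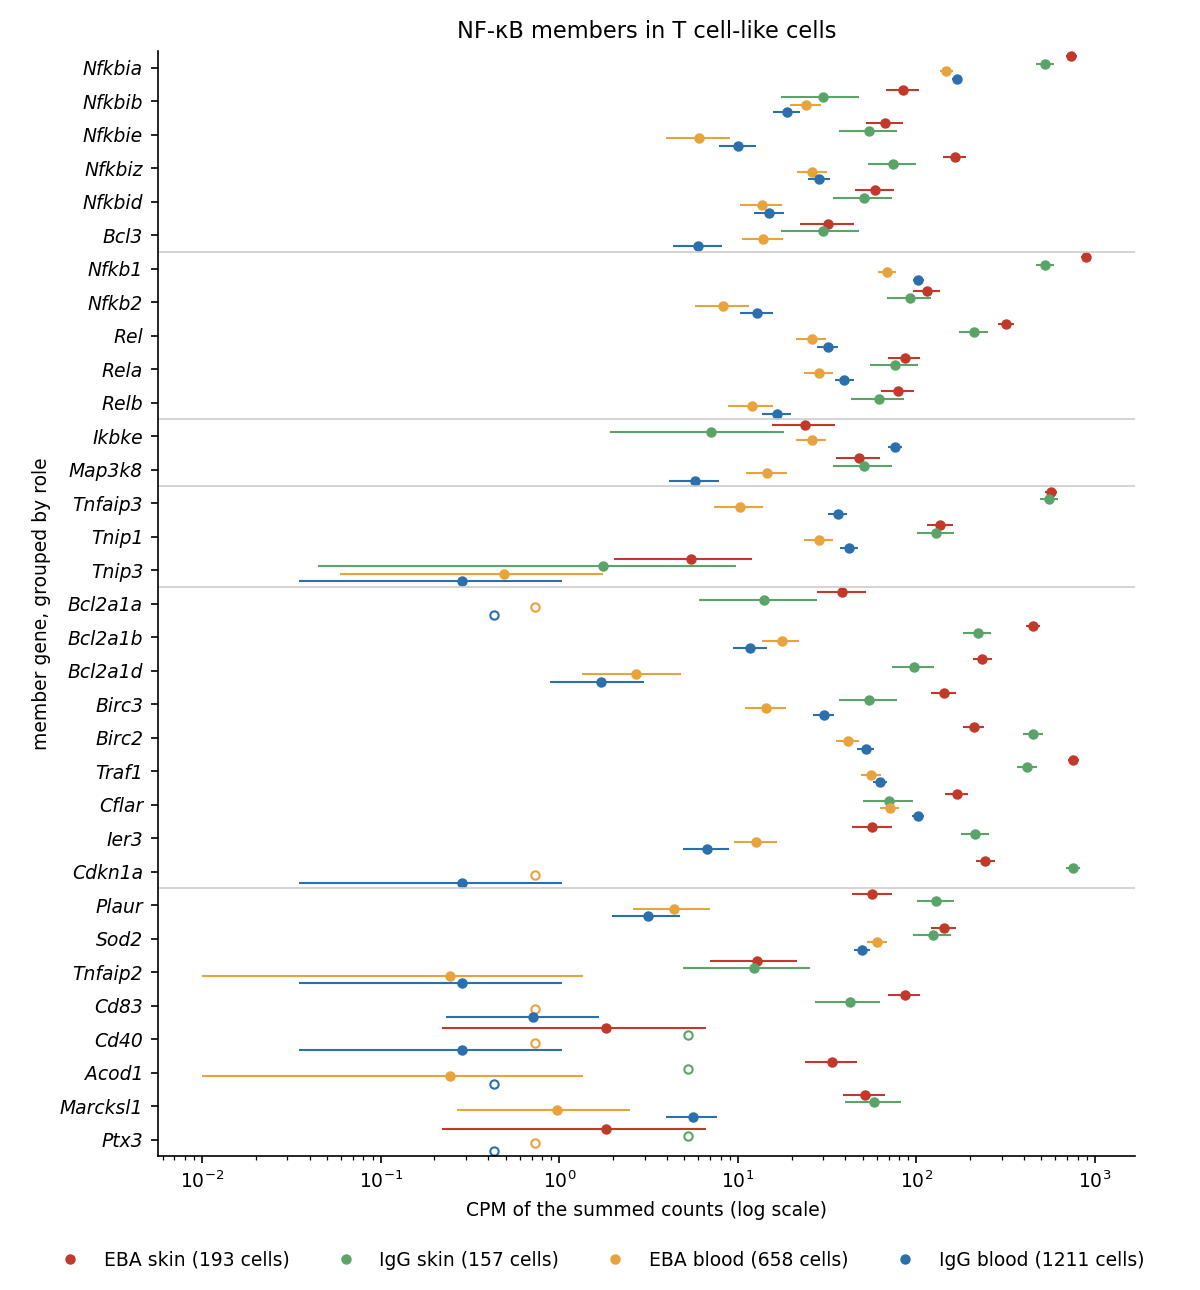
CPM of each member (log axis) in summed T cell-like cells of EBA skin (193 cells), IgG skin (157), EBA blood (658) and IgG blood (1211), with exact Poisson 95% intervals and open circles at 3 counts where a sum held no UMI. Both skin sums lie above both blood sums for members such as Tnfaip3, Traf1 and Nfkb1, whereas Ikbke is highest in IgG blood.

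Between EBA and IgG skin, T cell-like cells had 7 members higher and 4 lower of 30 measured, with a median log2 ratio of 0.16 and 12.4% and 12.1% of all measured genes called. Of the 28 that reached 10 CPM in both sums, 5 were higher and 4 lower. The lower members were Ier3 (56.7 and 213 CPM), Cdkn1a (243 and 753 CPM), Plaur (56.7 and 128 CPM) and Birc2 (209 and 450 CPM). Birc3 (142 and 54.5 CPM), Cflar (168 and 70.3 CPM), Bcl2a1d (234 and 96.7 CPM) and Nfkbib (84.1 and 29.9 CPM) were higher, as were Bcl2a1a, Ikbke and Acod1 at lower levels. Tnfaip3 stood at 565 and 552 CPM and was not called. The shares of the clusters differed between these sums, and within the Icos and Il2ra cluster 1 member was higher (Ikbke) and 1 lower (Plaur) of 29, with 12.7% and 7.6% of all measured genes called. Within the Trdc cluster 5 were higher and 3 lower of 25 (11.6% and 8.13%), with log2 ratios of −1.42 for Ier3 and −1.18 for Cdkn1a. Summed neutrophil markers were at 516 CPM in T cell-like cells of EBA skin and 127 CPM in those of IgG skin, with Ly6g at 0, and their part in the 33.8 CPM of Acod1 was not tested.

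In macrophage-like cells the summed level of the members was 8311 CPM in EBA skin (609 cells) and 8337 CPM in IgG skin (143 cells). Of 32 measured members 5 were higher in EBA skin and none lower, with a median log2 ratio of 0.05 and 6.04% and 7.07% of all measured genes called. Of the 31 that reached 10 CPM in both sums, 4 were higher. Acod1 was at 148 CPM in EBA skin and 17.4 CPM in IgG skin, a log2 ratio of 3.09 (2.40 to 3.87). Traf1 was at 242 and 97.2 CPM, and Tnip1 at 85.4 and 32.8 CPM, with log2 ratios of 1.31 and 1.38. Ikbke (21.2 and 7.16 CPM) and Bcl2a1a (33 and 15.4 CPM) were the other higher members. Sod2 was at 413 and 208 CPM (log2 ratio 0.99), Map3k8 at 58.4 and 109 CPM (−0.89) and Marcksl1 at 181 and 324 CPM (−0.84), and none of these was called. Summed neutrophil markers were at 1712 CPM in these cells of EBA skin and 182 CPM in IgG skin, and their part in the level of Acod1 was not tested. With cells named by marker UMIs alone 2 members were higher, and without doublet removal 1 was.

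Structural cells of skin had few called members. In fibroblast-like cells none of 23 measured members was higher in EBA skin and 2 were lower, with 3.1% and 3.47% of all measured genes called and a median log2 ratio of −0.39. Cdkn1a was at 179 CPM in EBA skin (824 cells) and 523 CPM in IgG skin (739 cells), a log2 ratio of −1.54 (−1.62 to −1.47). Tnfaip2 was at 121 and 251 CPM (−1.05). Ier3 (561 and 866 CPM), Plaur (102 and 175 CPM), Nfkb1 (440 and 653 CPM), Nfkb2, Rela and Relb had log2 ratios of −0.48 to −0.78 and were not called. Within the Pi16 and Dpt cluster 3 members were lower and none higher of 23 (4.69% of all measured genes higher, 3.79% lower), with Cdkn1a at −1.24. Within the Coch and Crabp1 cluster 1 was higher, Acod1, and 1 lower, Cdkn1a at −1.17, of 24 (2.47% and 2.93%). Over all fibroblast-like cells of EBA skin Acod1 was at 8.17 CPM, with a UMI in 3.28% of unthinned cells. The part of neutrophil RNA in this level was not tested.

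In keratinocyte-like cells none of 20 measured members was called in either direction between EBA skin (810 cells) and IgG skin (2427 cells), where 5.16% of all measured genes were higher and 1.76% lower. Nfkbia stood at 1035 CPM in EBA skin and 2122 CPM in IgG skin, a log2 ratio of −0.93 (−0.95 to −0.92), which on plain CPM passes the threshold of lower. Cdkn1a was at 593 and 1015 CPM (−0.67), Rel at 143 and 248 CPM (−0.69) and Tnfaip3 at 190 and 291 CPM (−0.51). Sod2 (153 and 120 CPM) and Nfkb1 (191 and 173 CPM) stood on the other side with 0.45 and 0.24. A cluster led by the wound keratins Krt6b and Krt16 made up 50.6% of the EBA keratinocytes and 3.09% of the IgG ones, and within it none of 19 measured members was called (3.87% and 2.0%). Without that cluster 1 of 21 was higher, Tnfaip2, and none lower (4.78% and 0.716%).

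Vascular endothelial-like cells were few, 56 in EBA skin and 51 in IgG skin. Of 25 measured members 3 were higher and 1 lower, where 11.4% and 6.58% of all measured genes were called. Of the 23 that reached 10 CPM in both sums, 1 was higher and 1 lower. Traf1 was at 72.9 and 21.9 CPM (log2 ratio 1.73) and Plaur at 118 and 257 CPM (−1.13). Ptx3 (18 UMIs and 1 UMI) and Acod1 (12 and 0) passed the threshold on few counts. Summed neutrophil markers were at 736 CPM in EBA skin and 50.1 CPM in IgG skin in these cells, and their part was not tested. In mural cells Cdkn1a was at 325 and 1100 CPM and Birc2 at 49.3 and 181 CPM, and 3 of 24 measured members were lower and 1 higher, where 10.7% of all measured genes were lower and 14% higher. In lymphatic endothelial cells Cdkn1a was at 223 and 581 CPM and Nfkbia at 1352 and 2833 CPM, and 3 of 25 were lower and 1 higher (7.96% and 11.4%). In Langerhans-like cells none of 30 measured members was called (6.98% higher and 4.67% lower among all genes).

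In monocyte-like cells of blood taken as a class, Bcl2a1 genes and Rel were lower and Ier3 and Bcl3 higher in EBA mice. Not all of these calls held within clusters, since Bcl2a1b was called in neither cluster and Bcl2a1d and Rel in 1 each. Of 31 measured members, 3 were higher in EBA blood (337 cells) than in IgG blood (263 cells) and 9 were lower, with a median log2 ratio of −0.20, and 10.8% and 6.5% of all measured genes were called. Of these 31, 7 reached 10 CPM in IgG blood alone and 2 in EBA blood alone, and of the 22 that reached it in both sums 2 were higher and 2 lower. The 3 Bcl2a1 copies were lower, with Bcl2a1a at 3.47 and 55.4 CPM, Bcl2a1b at 15.1 and 126 CPM and Bcl2a1d at 6.94 and 80.2 CPM. Rel was lower at 40.9 and 118 CPM, as were Nfkbie, Tnfaip3, Traf1, Cd83 and Cd40 at levels under 50 CPM. Ier3 was higher at 91.0 and 18.5 CPM, Bcl3 at 51.1 and 27.9 CPM, and Acod1 at 30.1 and 1.35 CPM, the last on 3 UMIs in IgG blood (log2 ratio 4.95, 3.39 to 7.24). Nfkbia (183 and 417 CPM, −0.71) and Nfkb1 (100.6 and 242 CPM, −0.79) were not called. The classical cluster made up 86.6% of EBA monocytes and 55.5% of IgG monocytes, and within it 3 members were higher and 5 lower of 29 (10.3% and 6.54%), with Ier3 at 92.1 and 18.4 CPM. Within the Ace and Treml4 cluster 2 were higher and 4 lower of 29 (6.02% and 11.6%). The log2 ratios of Bcl2a1a were −1.86 in the classical and −1.33 in the Ace and Treml4 cluster, and those of Bcl2a1d were −1.50 and −0.84, the latter not called. Bcl2a1b was called in neither cluster (−0.32 and −0.46). Rel was not called in the classical cluster (−0.71) and was lower in the Ace and Treml4 cluster (−1.82).

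In blood lymphocytes, members were called between EBA and IgG mice in T cell-like but not in B cell-like cells. None of 24 measured members was called in B cell-like cells (816 and 2076 cells), where 1.23% and 2.41% of all measured genes were called. Birc3 was at 103 and 190 CPM there (log2 ratio −0.55), Nfkb1 at 114 and 188 CPM (−0.39), Nfkb2 at 50.6 and 86.4 CPM (−0.44), Sod2 at 72.6 and 59.2 CPM (0.63) and Cd83 at 80.6 and 72.6 CPM (0.49). In T cell-like cells of blood 3 of 22 measured members were higher and 2 lower, where 1.37% and 2.35% of all measured genes were called. Ikbke was at 25.8 CPM in EBA blood and 76.0 CPM in IgG blood (−1.27), and Tnfaip3 at 10.2 and 36.2 CPM (−1.53). Bcl3, Map3k8 and Ier3 were higher in EBA blood at 12.7 to 14.6 CPM, and all 3 reached 10 CPM in EBA blood alone. Of the 17 members that reached it in both sums, none was higher and 2 were lower.

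**Figure D5:**
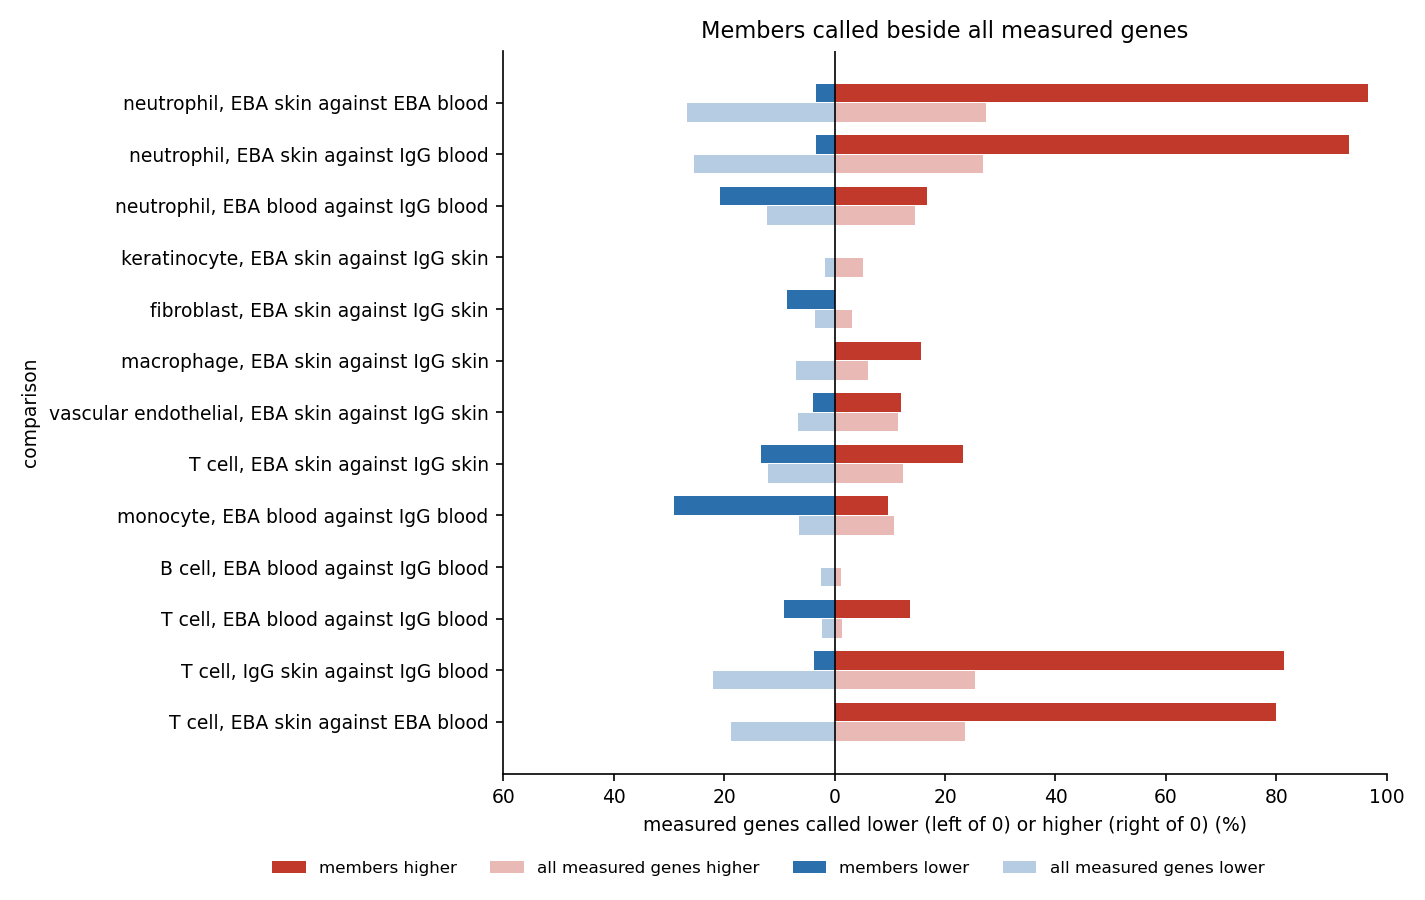
Share of measured genes (%) called higher (right of 0) or lower (left of 0) in each of 13 comparisons, for the members (dark bars) and for all measured genes (pale bars). Members called higher exceed the background bars most in neutrophil-like and T cell-like cells of skin against blood. The bars include members that reached 10 CPM in 1 of the sums alone. In blood monocyte-like cells these were 7 in IgG blood alone and 2 in EBA blood alone.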

How the data were processed

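UMI counts per gene and barcode were deposited by the authors as 4 filtered matrices made with Cell Ranger 3.0.0, per the file headers, on mm10, per the submitters' processing notes, which also name Seurat 3.0.0 and 3.1.0. Barcodes with under 200 genes or over 10% mitochondrial UMIs were removed here. Scrublet scores removed the top 0.8% per 1000 barcodes as likely doublets (94 to 228 a library), since its automatic threshold marked 2 or 3 barcodes in 3 of the libraries. The rest were clustered together (scanpy 1.11.5, 2000 variable genes, 30 components, Leiden resolution 1) with the members, pathway and stress genes left out. The 37 clusters were named X-like from 172 markers of 25 types, with at least 3 detected. Clusters differ in makeup between groups, and names rebuilt this way may differ from the study's.

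Counts were summed over the cells of a class in a library and compared as ratios, in sums of at least 20 cells, with exact Clopper-Pearson 95% intervals (scipy 1.17.1). A sum with no UMI was set to 3 counts. Intervals cover counting error only. The comparison code was tested on simulated data. Members named for neutrophils had at least 100 CPM in a neutrophil sum or a ratio of at least 4 or at most 0.25. In other comparisons up to 8 members with the largest ratios at 50 CPM or more were named, and up to 6 genes of each pathway list. Members outside this rule were named after their values were seen. The members and lists were chosen with earlier results of these data known.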

Additional observations from a re-analysis of the deposited data

Results flagged for a closer look

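In T cell-like cells 2 members had EBA to IgG ratios in opposite directions in skin and blood. For Ikbke the log2 ratio was 1.57 in skin, on 26 and 4 UMIs, and −1.27 in blood. For Ier3 it was −2.09 in skin and 1.21 in blood. Each value rests on 1 library a group and the clusters of these cells differ between tissues, so the difference was not tested.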

How the results depend on the processing

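No paired analysis was possible because each group is 1 pooled library and no comparison comes from a test. Between skin and EBA blood neutrophils 28 to 30 members were higher under every setting run, and 0 rather than 1 was lower on plain CPM, with a minimum of 1 CPM, with cells named by marker UMIs alone, without doublet removal, without blood barcodes that held platelet UMIs, and against the Camp cluster. Between EBA and IgG blood neutrophils, plain CPM gave 1 higher and 16 lower members and −0.01 for Sod2, marker naming gave 2 higher, and removing platelet-holding barcodes gave 8 lower and −2.05 for Acod1. A minimum of 1 CPM gave 3 higher and 1 lower member and a median of 0.02 in keratinocytes, 3 higher in fibroblasts, 1 lower in B cells and a median of 0.02 in blood T cells. Plain CPM gave 1 lower in keratinocytes. Marker naming gave 1 lower in fibroblasts, 2 higher in macrophages and 1 higher in monocytes. No doublet removal gave 1 higher and 1 lower in fibroblasts, 1 higher in macrophages, and 5 higher, 0 lower and a median of 0.05 in vascular endothelial cells. A 5% mitochondrial limit gave 2 lower and a median of 0.03 in endothelial cells and 1 higher in B cells. Weighting cells equally gave 1 higher in keratinocytes, 1 lower in fibroblasts and 2 lower in macrophages. Subtracting free RNA gave 2 lower in endothelial cells and a median of 0.02 in blood T cells. Single clusters, an alternative chosen after seeing the data, gave 5 lower (classical) and 4 lower (Ace and Treml4) in monocytes, 1 higher in keratinocytes without the Krt6b cluster, 1 higher and 1 lower in Icos T cells of skin, and 1 higher and 1 lower in Coch fibroblasts. The cause was not tested. Most other values were within 1.5 times or their interval of the reported ones, but not all were. For single members, 64 of 261 values across settings moved beyond those limits between skin and EBA blood neutrophils. Against IgG blood 58 of 261 did, and none reversed in either comparison. Between EBA and IgG blood neutrophils 43 of 213 moved and 2 reversed. Between EBA skin and EBA blood T cells 25 of 191 moved.

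Each group is 1 library of pooled mice, so differences between mice and between libraries cannot be told apart from those between groups. Depth limits the members with few UMIs, such as Cd40, Ptx3 and Tnip3 in neutrophils.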
